A study of Mus musculus with 4 samples.

Results

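The genes described here encode integrins and the proteins that tie them to actin at focal adhesions. They are 35 of the 32285 genes in the expression tables, chosen by symbol and not by any measured value. The set holds 12 integrin alpha chains, 7 beta chains and 16 adaptors and kinases. RNA and open chromatin were measured in the same nuclei of CT26 tumours by a 10x Multiome assay. CT26 is a mouse colon carcinoma line, and its cells grew under the skin of the flank in BALB/c mice until day 14. The 2 groups carry the labels Sun1_WT and Sun1_KO, with 1 expression and 1 accessibility library for each genotype, so 4 libraries in all. The labels attach the genotype to the CT26 cells. The labels do not say how Sun1 was knocked out, whether the knockout line was 1 clone or how many mice went into a library, and both groups share the line, the site of growth, the host strain and the day. With 1 library per genotype no difference could be tested against replicate spread, so intervals at the 95% level cover counting error only, and a fold threshold stands in for a test.

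Integrins are receptors made of 1 alpha and 1 beta chain that bind matrix or other cells outside and connect to actin inside. Itga6 pairs with Itgb4 or Itgb1 to bind laminin, Itga5 with Itgb1 binds fibronectin, and Itgav pairs with several beta chains to bind vitronectin, fibronectin or latent TGF-beta. The chains Itgal, Itgam, Itgax, Itgb2 and Itgb7 mark leukocytes, in which they serve arrest on vessels and contact between cells. Talin (Tln1) and the kindlins (Fermt2 in most adherent cells, Fermt3 in blood cells) switch integrins on, while vinculin, the Ilk complex, paxillin and focal adhesion kinase (Ptk2) build the adhesion and signal from it. SUN1 spans the inner membrane of the nuclear envelope and helps couple the nucleus to actin and microtubules.

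The expression libraries held 3455 Sun1_WT and 2404 Sun1_KO nuclei with medians of 13789 and 11549 UMIs (unique molecules counted) per nucleus, and 3345 and 2172 nuclei passed the filters. Only 12 barcodes occurred in both libraries. Marker genes other than those described put 2447 and 1268 nuclei in a tumour gate, 310 and 273 in a myeloid gate and 90 and 119 in a lymphoid gate. A gate is a range of marker levels and not a cell type: 113 and 57 tumour-gated, 47 and 53 myeloid-gated and 30 and 32 lymphoid-gated nuclei lay within 20% of their threshold. Mitochondrial UMIs were 6.97% and 11.3% of the tumour-gated total and 3.98% and 9.71% of the lymphoid-gated one, and their part in the differences was not tested. In the tumour gate all 20 myeloid markers summed to 106 CPM (summed UMIs scaled by the total of the gate) in Sun1_WT and 143 CPM in Sun1_KO, and the host transcript Xist to 0.801 and 1.89 CPM. The 7 fibroblast markers summed to 581 and 283 CPM there. Sun1 itself was at 105 CPM (interval 102 to 108) in Sun1_WT and 64.6 CPM (61.3 to 68.0) in Sun1_KO tumour-gated nuclei, which is lower in the library labelled knockout but not absent, and whether these reads lie outside the deleted part of the gene cannot be told from counts per gene. It was at 36.7 and 35.9 CPM in myeloid-gated nuclei.

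The promoters of 4 genes are shown because the data bear on them. Itga2 and Itgam had the member promoters that were less accessible in Sun1_KO tumour-gated nuclei. Itga3 encodes 1 of the 4 alpha chains with at least 1.5-fold more RNA in those nuclei. Fermt3 had a promoter open in leukocytes and nearly closed in the tumour gate. The sequences are from RefSeq (GRCm38.p6, the build called mm10), 5′ to 3′ on the strand of the gene, ending next to the annotated gene and holding no transcribed base. Capitals mark GGGCGG or its reverse complement CCGCCC, read by SP and KLF factors, and TGTGGT, read by RUNX factors.
Itga2, chr13:114932101-114932350, minus strand: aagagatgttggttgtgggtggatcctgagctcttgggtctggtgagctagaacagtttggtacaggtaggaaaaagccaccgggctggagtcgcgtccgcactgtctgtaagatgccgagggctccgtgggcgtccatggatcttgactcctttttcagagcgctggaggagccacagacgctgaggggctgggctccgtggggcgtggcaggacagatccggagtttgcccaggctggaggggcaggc
Itgam, chr7:128062390-128062639, plus strand: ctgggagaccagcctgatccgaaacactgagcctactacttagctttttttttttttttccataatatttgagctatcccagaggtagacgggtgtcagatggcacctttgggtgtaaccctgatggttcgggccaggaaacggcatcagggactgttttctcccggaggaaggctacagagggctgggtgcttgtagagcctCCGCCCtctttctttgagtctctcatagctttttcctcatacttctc
Itga3, chr11:95076845-95076964, minus strand, 120 bases: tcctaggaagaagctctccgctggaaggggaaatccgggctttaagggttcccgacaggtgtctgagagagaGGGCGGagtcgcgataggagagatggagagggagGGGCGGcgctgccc
Fermt3, chr19:7019470-7019719, minus strand: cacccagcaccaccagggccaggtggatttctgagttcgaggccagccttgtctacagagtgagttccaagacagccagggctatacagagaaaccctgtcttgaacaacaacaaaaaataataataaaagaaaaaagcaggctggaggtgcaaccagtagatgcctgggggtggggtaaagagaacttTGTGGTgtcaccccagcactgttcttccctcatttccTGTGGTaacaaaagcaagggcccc
The search covered 5 motifs on both strands of the 250 bases before each start: TGANTCA (AP-1), GGAATG (TEAD), GGAAGT (ETS factors and PU.1), GGGCGG and TGTGGT. They do not overlap one another in the sequences shown. Itga2 held none of the 5, Itgam held 1 GGGCGG, Itga3 2 in the stretch printed and Fermt3 2 TGTGGT, 61 and 24 bases before the start. GGGCGG stood in 18 of the 31 windows of the set (58.1%) and in 32.7% of 32851 windows of all genes. GC content was also higher in the set, with a median of 64% against 52.4%. TGTGGT stood in 16.1% of the set's windows and 14.1% of all, TGANTCA in 9.68% and 6.75%, GGAATG in 12.9% and 12.6%, and GGAAGT in 19.4% and 19.7%. A match is a run of letters and was not tested as a binding site. Windows matched 26 of the 35 genes, and the genes with no entry were Itga6, Itga7, Itgal, Itgb2, Itgb3, Itgb4, Pxn, Ptk2 and Parva.

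Tumour-gated nuclei of the Sun1_KO library had less RNA of the laminin receptor chains Itgb4 and Itga6 and more of Itga3 and Itga5. The 16 adaptors and kinases lay within 1.5-fold of their Sun1_WT levels, as did 10909 of all 14177 genes compared. With a minimum of 50 UMIs over both libraries, 31 genes could be compared. Sun1_KO exceeded Sun1_WT by 1.5-fold or more for 5 of them and was lower by as much for 4. Among all 14177 genes compared in these nuclei, 12.9% passed that threshold upward and 10.1% downward. The share of the set is thus near that of all genes. Its median log2 ratio of Sun1_KO over Sun1_WT was 0.09, and that of all genes 0.14. Scaling by edgeR's TMM factors moved the all-gene median to -0.07 and the higher and lower calls from 1833 and 1435 to 949 and 2457. The counts in the set became 2 and 6 with that scaling. Values below use totals without mitochondrial genes and are read against the median of 0.14.

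**Figure D1:**
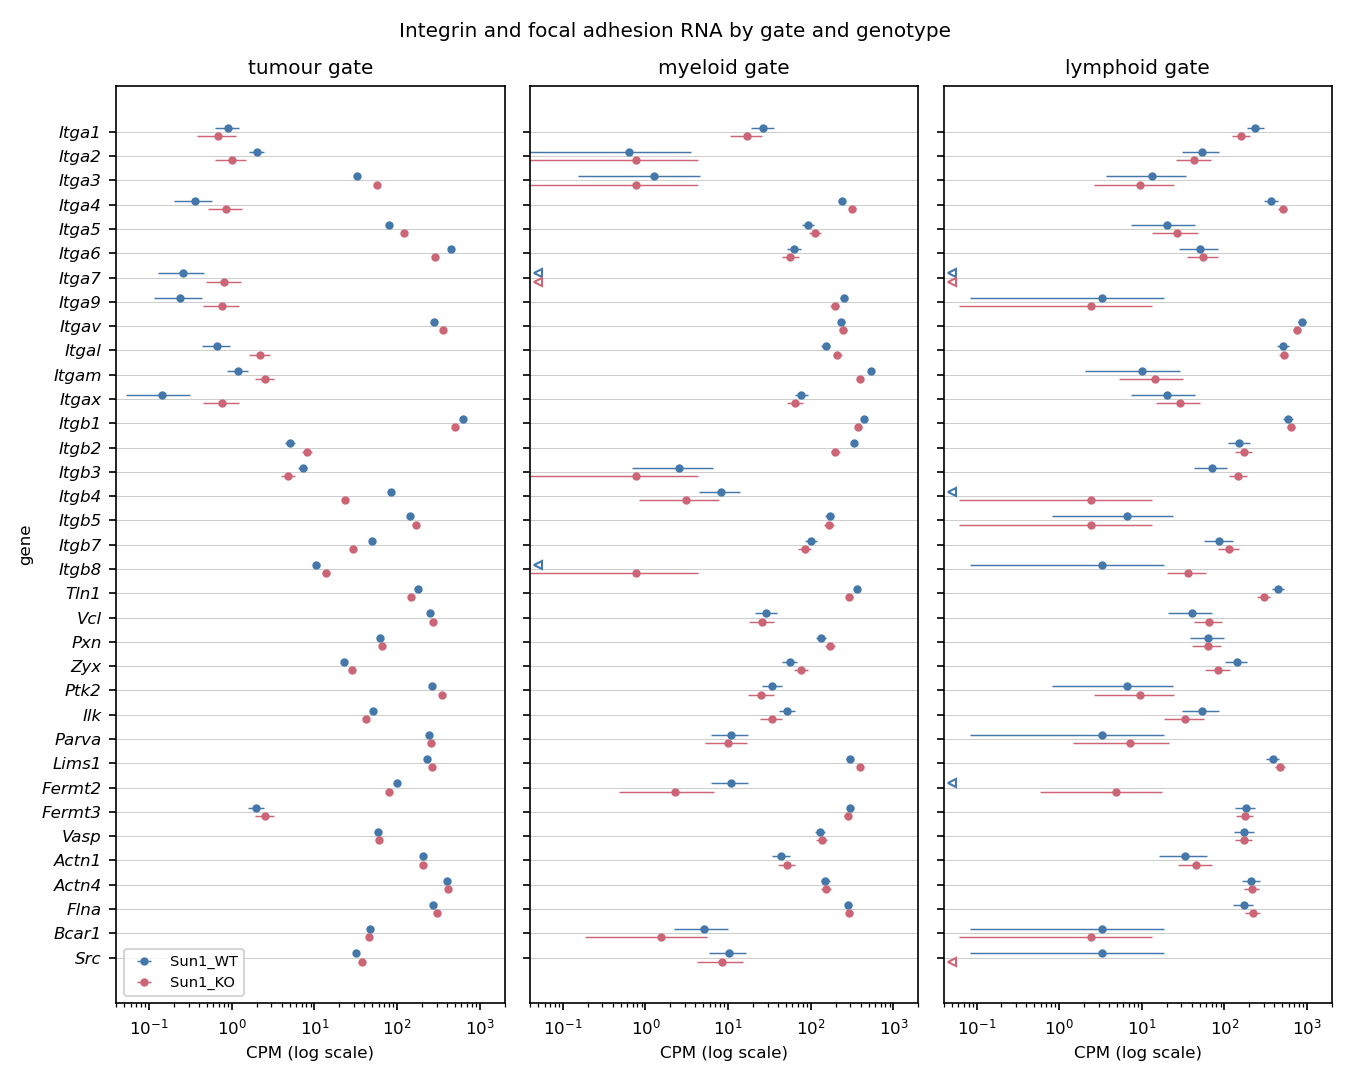
Level of each of the 35 genes in the 3 gates, as CPM on a log axis, blue for Sun1_WT and red for Sun1_KO, with 95% Poisson intervals that cover counting error only. Open triangles at the left edge stand for 0 UMIs, and intervals that reach below the axis are cut there. Itgb4 lies at 84.3 CPM in Sun1_WT and 23.6 in Sun1_KO tumour-gated nuclei, and Itgal, Itgam, Itgb2 and Fermt3 lie far to the right in the leukocyte gates.

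Among the laminin receptors, Itgb4 had the lowest ratio of the whole set. Itgb4, the beta chain of the hemidesmosome integrin, had 3576 UMIs (84.3 CPM, interval 81.5 to 87.1) in Sun1_WT and 523 UMIs (23.6 CPM, 21.6 to 25.7) in Sun1_KO, a log2 ratio of -1.84 (-1.97 to -1.70) and 3.57-fold less. Its partner Itga6 was at 452 CPM (446 to 458) and 283 CPM (277 to 291), a log2 ratio of -0.67. The other partner of Itga6, Itgb1, which pairs with most alpha chains, was at 632 and 497 CPM, a log2 ratio of -0.35 that is inside the threshold. Itga3, whose product joins Itgb1 to bind laminin, went the other way, from 33.1 CPM (31.4 to 34.9) to 57.3 CPM (54.2 to 60.5), a log2 ratio of 0.79. Itga3 thus made up 3.89% of alpha chain UMIs in Sun1_WT and 6.94% in Sun1_KO, Itga6 53.0% and 34.4%, and Itgb4 9.05% and 3.17% of beta chain UMIs. Per kilobase of annotated gene, Itgb1 was the highest chain of the set in both libraries, at 13.2 and 10.4 CPM per kilobase, with Itga6 at 6.32 and 3.96, Itga5 at 3.54 and 5.31, Itgav at 3.33 and 4.20 and Itgb4 at 2.50 and 0.70. The alpha chains together were at 853 and 825 CPM and the beta chains at 932 and 744 CPM.

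The share of nuclei with an Itgb4 UMI differed as well. Such a share also falls when each nucleus holds less of the RNA. It therefore cannot tell fewer expressing nuclei from less RNA in each. With each nucleus thinned to 5000 UMIs, 28.8% (27.0 to 30.7) of 2383 Sun1_WT and 9.002% (7.46 to 10.7) of 1233 Sun1_KO tumour-gated nuclei had an Itgb4 UMI, and 64 and 35 shallower nuclei were left out. Before thinning these were 1318 of 2447 and 314 of 1268 nuclei. Myeloid-gated nuclei should hold little of it. At the same depth 2.80% (0.767 to 7.01) of 143 Sun1_WT and 0.781% (0.0198 to 4.28) of 128 Sun1_KO myeloid-gated nuclei had an Itgb4 UMI. The other 167 and 145 myeloid-gated nuclei were shallower and left out. Medians before thinning were 4629 and 4651 UMIs in the whole myeloid gate, against 16607 and 16589 in the tumour gate. Both tumour values stand above the background in these deeper myeloid-gated nuclei. Itga6 was found in 71.1% and 62.3% of thinned tumour-gated nuclei, Itga3 in 13.2% and 20.9%, and Itga5 in 29.5% and 39.3%. The order of these shares is that of the CPM values for each of the 4 genes.

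Among the receptors for fibronectin and vitronectin, Itga5 was at 79.7 CPM (77.0 to 82.4) in Sun1_WT and 120 CPM (115 to 124) in Sun1_KO. Its log2 ratio of 0.59 (0.51 to 0.66) sits at the threshold, and the call was lost in 6 of 12 other settings, TMM scaling and the stricter gate among them, with values from 0.37 to 0.63. Itgav was at 282 and 355 CPM, a log2 ratio of 0.33, and its partner Itgb5 at 142 and 167 CPM, a ratio of 0.23. Itgb8, which with Itgav releases TGF-beta from its latent form, was low at 10.5 and 13.8 CPM (0.39), and its ratio was -0.03 when nuclei were thinned to 1000 UMIs. Itgb3 was lower, at 7.19 CPM (6.40 to 8.04) and 4.82 CPM (3.95 to 5.83), with a log2 ratio of -0.57 just inside the threshold, which it passed in 5 of 12 other settings. The chains that pair with Itgav were therefore above Sun1_WT for Itgb5 and Itgb8 and below it for Itgb3, none of them past 1.5-fold. Itga2, a collagen receptor chain, was near the floor in both libraries, with 85 UMIs (2.003 CPM) and 22 UMIs (0.992 CPM), a log2 ratio of -0.99 (-1.76 to -0.32). Itga1, the other collagen receptor chain, had 38 and 15 UMIs, with an interval of its log2 ratio from -1.37 to 0.49.

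Integrin chains of leukocytes were near the floor in the tumour gate, and 3 of the 5 higher calls were among them. Itgal had 28 UMIs (0.660 CPM) in Sun1_WT and 49 UMIs (2.21 CPM) in Sun1_KO, Itgam 50 and 56 UMIs (1.18 and 2.53 CPM), and Itgb2 214 and 180 UMIs (5.04 and 8.12 CPM). Their log2 ratios were 1.73, 1.10 and 0.69, and the call of Itgb2 was lost with TMM scaling (0.48) and with median-ratio scaling (0.55). Myeloid-gated nuclei held 151, 540 and 337 CPM of these genes in Sun1_WT, far above the tumour-gate values. The leukocyte gene Ptprc moved in the same direction in that gate, from 2.76 to 9.47 CPM, as did the myeloid markers given above, and the part of leukocyte RNA in these 3 calls was not tested. Itgb7, also known from lymphocytes, differed from them: tumour-gated nuclei held 49.9 CPM in Sun1_WT and 28.9 CPM in Sun1_KO, a log2 ratio of -0.79 (-0.92 to -0.66), at a level comparable with the 101 CPM of myeloid-gated nuclei. Itga4, Itga7, Itga9 and Itgax had 6 to 15 UMIs in Sun1_WT and 17 to 19 in Sun1_KO and were not compared.

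The adaptors and kinases gave no call in the tumour gate: 16 of 16 were compared and lay within 1.5-fold. Of all 14177 genes compared there, 12.9% were higher and 10.1% lower. Their log2 ratios ran from -0.32 for Fermt2 to 0.43 for Ptk2, with a median of 0.08. Fermt2, kindlin-2, was at 100 CPM (97.2 to 103) and 80.1 CPM (76.4 to 83.9), and it lay above Sun1_WT (0.09) only when thinned to 1000 UMIs. Talin (Tln1) was at 178 and 148 CPM, and the pseudokinase Ilk at 51.3 and 42.2 CPM. Ptk2 was at 262 CPM (257 to 266) and 353 CPM (345 to 361), the largest ratio of this group. Its substrate Bcar1 was at 46.7 and 45.1 CPM and its partner Src at 32.1 and 37.8 CPM. The actin crosslinkers were nearly the same in both libraries, with Actn1 at 205.1 and 205.1 CPM, Actn4 at 399 and 408 CPM and Flna at 275 and 306 CPM. Vcl, Pxn, Zyx, Vasp, Parva and Lims1 had log2 ratios between 0.06 and 0.30. Since TMM scaling lowers each ratio by more than most of these values, no direction is given for them.

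**Figure D2:**
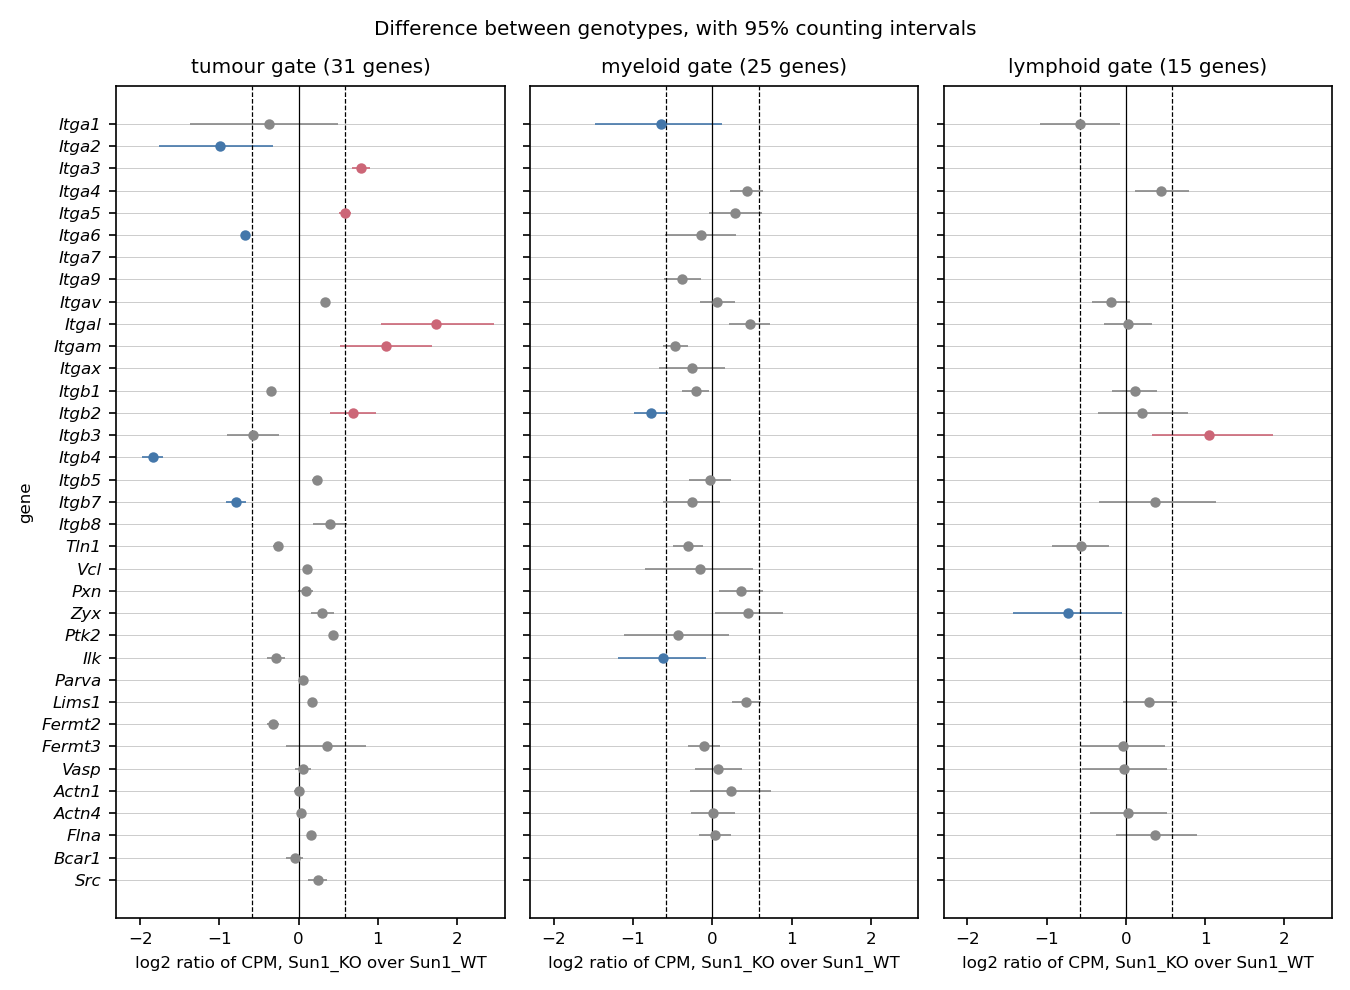
Log2 ratio of CPM, Sun1_KO over Sun1_WT, for the genes with at least 50 summed UMIs in each gate (31, 25 and 15 genes), with 95% counting intervals. Dashed lines mark 1.5-fold, red points lie above it, blue points below it and grey points between. In the tumour gate Itgb4 stands farthest left at -1.84 and Itgal farthest right at 1.73.

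The tumour gate was not uniform, and the 2 libraries filled different clusters of it. Clustering both libraries together, without the 35 genes, gave 9 clusters with at least 50 tumour-gated Sun1_WT nuclei and 5 with at least 50 Sun1_KO nuclei. Clusters that drew at least 90% of their tumour-gated nuclei from Sun1_WT held 80.3% of that library's nuclei, and those that drew as much from Sun1_KO held 22.2%. Clusters of 1 library share that library and are no replicates. Itgb4 was at 55.5 to 105 CPM (median 77.9) over the Sun1_WT clusters and at 17.4 to 27.5 CPM (median 23.0) over the Sun1_KO clusters, so the 2 ranges did not overlap. It was the only 1 of 31 compared genes of the set with that order, against 0.656% of all 14177 genes, and no gene of the set had Sun1_KO wholly above, against 1.31%. Ranges overlapped for Itga6 (153 to 690 and 145 to 363 CPM), Itga3 (16.5 to 54.5 and 40.8 to 71.8 CPM) and Itga5 (67.6 to 156 and 90.05 to 180 CPM).

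**Figure D3:**
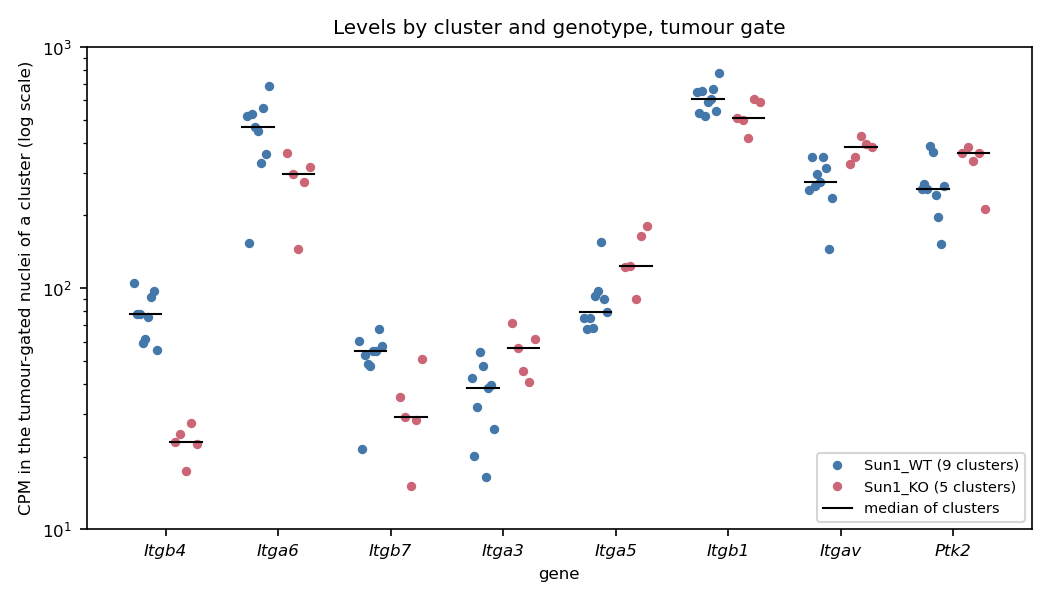
CPM (log axis) of 8 genes in each cluster of tumour-gated nuclei, 1 point per cluster with at least 50 such nuclei, blue for Sun1_WT (9 clusters) and red for Sun1_KO (5 clusters), with a bar at the median. The Itgb4 points of Sun1_KO, 17.4 to 27.5 CPM, all lie under those of Sun1_WT, 55.5 to 105 CPM, while the points of the other 7 genes overlap.

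A pair of clusters showed that the choice of integrin chains varied within the tumour gate of each library. Cluster 1 held 626 Sun1_WT nuclei and was led by the matrix genes Aspn, Omd, Dcn and Prelp; cluster 7 held 276 Sun1_KO nuclei, with Ogn and Dpt among its leading genes. These genes are also made by fibroblasts, so the clusters are called by number. The 7 fibroblast markers summed to 20.4 and 7.45 UMIs per 10000 in clusters 1 and 7 and to 1.26 to 3.03 in the other 8 clusters of tumour-gated nuclei, and their part in the values that follow was not tested. Summed tumour markers stood at 26.8 and 43.4 UMIs per 10000 in clusters 1 and 7 and Xist at 0.0108 and 0.0364. Clusters 5, 6 and 13, which hold myeloid or lymphoid nuclei, had 11.7 to 18.7 of Xist. Cluster 19, also classed as myeloid, had only 0.585 of Xist, in 14 Sun1_WT and 6 Sun1_KO nuclei. Cluster 1 had 355 CPM of Itgb5 and 35.8 CPM of Itgb8, where the median Sun1_WT cluster had 100 and 2.68 CPM. Cluster 7 had 420 CPM of Itgb5 and 38.2 CPM of Itgb8, where the median Sun1_KO cluster had 116 and 8.06 CPM. Both clusters were lowest of their library in Itga6 (153 and 145 CPM) and in Itgb7 (21.5 and 15.1 CPM). Itga6 thus did not differ between these 2 clusters as it did over the whole gate, whereas Itgb4 did, with 77.9 CPM in cluster 1 and 17.4 CPM in cluster 7.

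In the tumour gate 4 clusters held at least 50 tumour-gated nuclei of each library, and within each of them the libraries can be set side by side. They were led by Gpc5 and Ift81 (cluster 3), by mitotic genes such as Ccnf and Espl1 (cluster 4), by the hypoxia genes Ndrg1 and Car9 (cluster 8) and by interferon-induced genes such as Cxcl10 and Rsad2 (cluster 10). Itgb4 was lower in Sun1_KO in 4 of 4, with log2 ratios from -1.99 to -1.31. Itga6 was below Sun1_WT in 4 of 4 and past 1.5-fold in 2, from -0.82 to -0.26. Itgb7 was below it in 4 of 4, from -0.93 to -0.10. Itga3 (0.23 to 1.30) and Itga5 (0.21 to 0.83) were above it in 4 of 4, each past 1.5-fold in 2. Itgb1 ran from -0.25 to -0.0023 and Itgav from 0.12 to 0.35, with no call. With totals as the scale, Fermt2, Ilk and Tln1 were also below Sun1_WT in 4 of 4. Flna, Itgb5, Vasp and Zyx were above it in 4 of 4. The same sign in 4 of 4 is thus not particular to the chains above, and its share among all genes was not computed. Sun1 was below Sun1_WT in 4 of 4. Among tumour-gated nuclei with 0 UMIs of Dcn, a setting added after seeing the data, 4 of 27 genes of the set were higher and 4 lower, where 12.8% and 8.98% of all 11922 genes were, with Itga3 at 0.67 and Itga6 at -0.78.

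**Figure D4:**
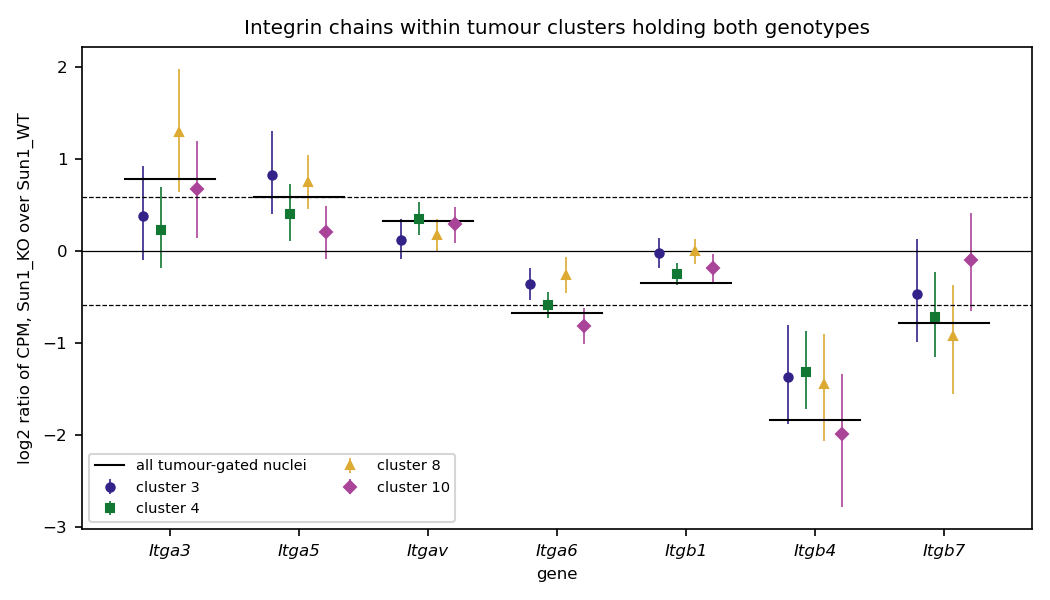
Log2 ratio of CPM, Sun1_KO over Sun1_WT, of 7 integrin chains within the 4 clusters that hold at least 50 tumour-gated nuclei of each library, with 95% counting intervals. Black bars give the ratio over all tumour-gated nuclei and dashed lines 1.5-fold. All 4 Itgb4 points lie below the lower line, at -1.31 to -1.99.

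Summed over regions called in both libraries, accessibility of the same tumour-gated nuclei differed little at these genes. A locus is the gene and 1 kilobase before it. Genes with no promoter entry, such as Itgb4 and Itga6, took 1 kilobase on both sides. Regions called in 1 library only were left out. Over the shared regions 0 of 35 loci were higher and 0 lower by 1.5-fold, where 3.19% and 1.94% of all 18662 loci were. The Itgb4 locus had 28.7 and 30.8 CPM of accessibility (counts scaled by the total over regions shared by the libraries). Its log2 ratio was 0.10, beside an RNA ratio of -1.84. These values leave out 1 of its 7 regions, which was called only in Sun1_WT and is described below. The Itga6 locus was at 88.9 and 88.98 CPM beside an RNA ratio of -0.67, and the Itga3 locus at 42.3 and 46.0 beside 0.79. Of 24 promoters compared 0 were higher and 2 lower, against 2.85% and 2.16% of all 12058. The promoter of Itga2 went from 421 counts (2.28 CPM) to 71 counts (0.591 CPM), a log2 ratio of -1.94 (-2.51 to -1.43), the same direction as its RNA. That of Itgam had 84 and 35 counts, a log2 ratio of -0.63 with an interval of -1.54 to 0.19, opposite to its RNA. The Itga2 promoter was also lower in myeloid-gated nuclei, with 42 and 12 counts and a log2 ratio of -1.54 (-3.18 to -0.22), and in lymphoid-gated ones it had 61 and 54 counts, a ratio of -0.50 (-1.30 to 0.30).

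In myeloid-gated nuclei 1 of 22 promoters was higher (Itgb8, 16 and 45 counts) and 1 lower (Itga2), against 1.4% and 1.78% of all promoters, and 1 of 32 loci was higher (Itgb8) and 0 lower, against 1.68% and 2.28%. In lymphoid-gated nuclei 2 of 20 promoters were higher, Itgax with 33 and 66 counts and Itgb1 with 81 and 161 counts, and 0 lower, against 3.71% and 3%. Of 32 loci there 1 was higher (Itgb8, 16 and 35 counts) and 0 lower, against 2.81% and 4.28%.

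**Figure D5:**
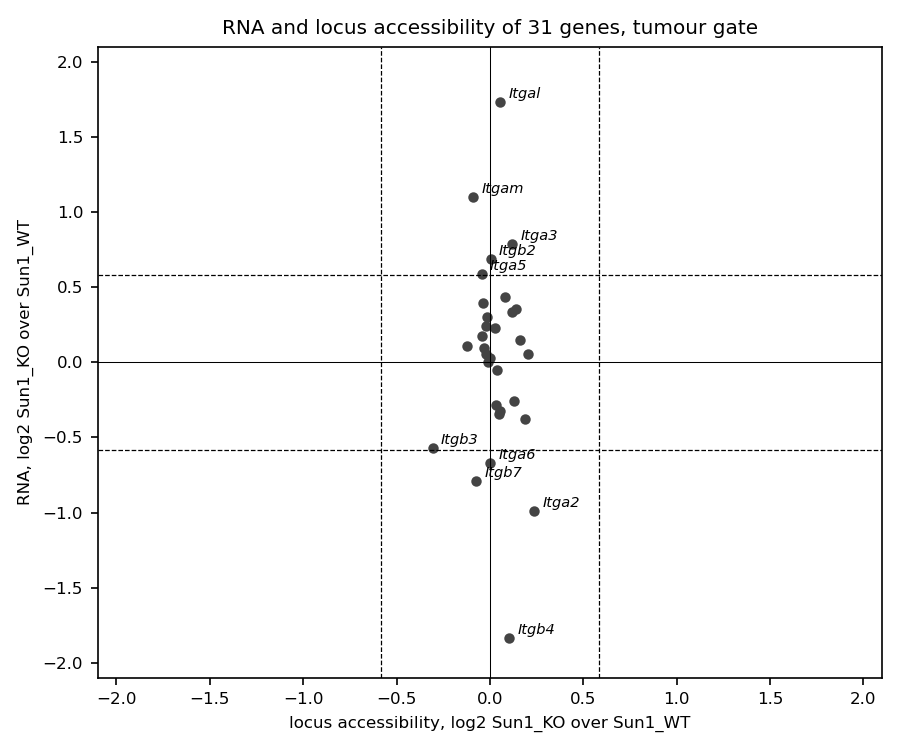
Log2 ratio of RNA (vertical) against that of locus accessibility (horizontal), Sun1_KO over Sun1_WT, for the 31 genes compared in tumour-gated nuclei, on axes of equal length with dashed lines at 1.5-fold. Locus accessibility sums only regions called in both libraries. RNA ratios span -1.84 (Itgb4) to 1.73 (Itgal), while accessibility ratios of the 31 genes stay between the dashed lines.

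In tumour-gated nuclei single regions within the loci differed more than their sums. Of 300 shared regions 20 (6.67%) were higher and 9 (3%) lower, against 7.45% and 5.6% of all 112861 shared regions, so the loci were not richer in differing regions. At Itgb4 the region chr11:115993447-115994317 was called only in Sun1_WT, where it held 671 counts, and no ratio was formed because peaks were called in each library separately. Its neighbour chr11:115991789-115992716 had 911 and 366 counts, a log2 ratio of -0.70. The region chr11:116000351-116001176 was higher with 456 and 540 counts (0.86), and the other 4 shared regions of that gene ran from -0.28 to 0.29. At Itga2 the promoter region chr13:114931451-114932353 was lower, while 2 regions inside the gene, chr13:114838292-114839208 and chr13:114875843-114876764, were higher with ratios of 1.52 and 1.46. The opposite signs within the gene leave its locus at 0.24.

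Many genes of the set also differed between the gates, in both libraries. Against tumour-gated nuclei, 7 of 32 genes were at least 4-fold higher in myeloid-gated nuclei of both libraries and 9 at least 4-fold lower, where 7.24% and 11.9% of all genes were. The higher genes were Itga4, Itga9, Itgal, Itgam, Itgax, Itgb2 and Fermt3. The lower ones were Itga3, Itga6, Itgb4, Itgb8, Vcl, Ptk2, Parva, Fermt2 and Bcar1. A gene needed 50 UMIs in each library, summed over the gates compared. Of the higher genes, Itga4, Itga9, Itgal and Itgax had 6 to 28 tumour-gate UMIs in Sun1_WT and 17 to 49 in Sun1_KO. They entered only through the myeloid gate, so the filter favoured a higher call for them. Of the lower genes, Itga3, Itgb4, Itgb8, Parva, Fermt2 and Bcar1 had fewer than 50 myeloid-gate UMIs in each library. These entered only through the tumour gate, so the filter favoured a lower call for them. In lymphoid-gated nuclei 7 of 31 genes were higher (Itga1, Itga4, Itgal, Itgam, Itgb2, Itgb3 and Fermt3) and 10 lower, against 4.52% and 9.95%. Of these, Itga1, Itga4 and Itgal entered only through the lymphoid gate. The 10 lower genes entered only through the tumour gate, so the filter again favoured a lower call for them. Itgam was only 0.464% and 0.679% of alpha chain UMIs in lymphoid-gated nuclei, so its call rests on few UMIs in both gates. Tln1, Flna, Pxn, Vasp, Ilk and Lims1 stayed within 4-fold in both leukocyte gates.

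The 2 kindlins divided between the gates in RNA and in chromatin. Fermt2 was at 100 and 80.1 CPM in tumour-gated, 10.8 and 2.29 CPM in myeloid-gated and 0 and 2 UMIs in lymphoid-gated nuclei. Fermt3 was at 1.98 and 2.53 CPM in tumour-gated, 298 and 278 CPM in myeloid-gated and 180 and 176 CPM in lymphoid-gated nuclei. The Fermt3 promoter printed above had 0.792 and 1.10 CPM of accessibility in tumour-gated nuclei, 29.6 and 34.2 in myeloid-gated and 41.4 and 43.2 in lymphoid-gated ones. The Fermt2 promoter had 38.0 and 34.5 in tumour-gated nuclei and only 2 and 10 counts in myeloid-gated ones. Parva, which joins Ilk to actin, was at 246 and 256 CPM of RNA in tumour-gated and 10.8 and 9.94 CPM in myeloid-gated nuclei, and its locus at 214 and 211 against 2.63 and 3.70 CPM of accessibility. The Itga9 locus was the reverse, at 7.71 and 10.3 in tumour-gated and 249 and 245 in myeloid-gated nuclei.

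Myeloid-gated nuclei of Sun1_KO had less RNA of the leukocyte beta chain Itgb2, and few other genes of the set differed. Of 25 genes compared 0 were at least 1.5-fold higher and 3 lower, against 7.94% and 5.92% of 7697 genes. Itgb2 had 533 UMIs (337 CPM, interval 309 to 367) in Sun1_WT and 258 UMIs (197 CPM, 174 to 223) in Sun1_KO, a log2 ratio of -0.77 (-0.99 to -0.56). Its partner Itgam, which with it forms the complement receptor Mac-1, was at 540 and 391 CPM, a log2 ratio of -0.47. The partner Itgal, with which it forms LFA-1, was on the other side at 151 and 210 CPM, a ratio of 0.47. The 20 lymphoid markers were also higher in this gate, at 111 and 175 CPM. The 4 NK markers among them were at 96.2 and 154 CPM, and the 9 T markers among them at 10.8 and 10.7 CPM. The part of these markers in the Itgal difference was not tested. Itgax was at 76.6 and 64.2 CPM. Summed myeloid markers were also lower in this gate, at 24270 and 17992 CPM, and the 7 neutrophil markers at 131 and 98.6 CPM, and their part in the Itgb2 difference was not tested.

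The other 2 lower calls in myeloid-gated nuclei rest on few UMIs. Itga1 had 42 and 22 UMIs (log2 ratio -0.64, interval -1.47 to 0.12), and Ilk had 82 and 44 (-0.62, -1.19 to -0.08). Itga4, which with Itgb1 binds VCAM1, was at 236 and 319 CPM, a log2 ratio of 0.43, and Lims1, a member of the Ilk complex, at 294 and 395 CPM, also 0.43. Itga9 was at 252 and 194 CPM. Itgb5, Itgav, Actn4, Flna, Vasp and Fermt3 had ratios between -0.10 and 0.08. Itga5, Itga6, Itgb1, Itgb7, Tln1, Vcl, Pxn, Zyx, Ptk2 and Actn1 had ratios between -0.43 and 0.46. The genes not compared were Itga2, Itga3, Itgb3, Itgb4, Itgb8, Parva, Fermt2, Bcar1 and Src, with at most 17 UMIs in either library, and Itga7 with 0 in both, which allows up to 3 UMIs in each.

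Lymphoid-gated nuclei were few, and 15 genes could be compared. One was higher and 1 lower in Sun1_KO, against 11.4% and 9.25% of 3361 genes. Itgb3 had 21 UMIs (70.1 CPM, interval 43.4 to 107) in Sun1_WT and 61 UMIs (147 CPM, 112 to 189) in Sun1_KO, a log2 ratio of 1.04 (0.33 to 1.86). Of the 61 UMIs 28 came from 1 nucleus, and without the deepest 5% of nuclei the gene had fewer than 50 UMIs and was not compared. Zyx had 42 and 35 UMIs, a log2 ratio of -0.73 (-1.42 to -0.05). Itga1 (-0.58) and Tln1 (-0.57) lay just inside the threshold. Itgav was higher here than in the tumour gate, at 867 and 763 CPM against 282 and 355 CPM, and Itgal was at 510 and 520 CPM. The 9 other genes of low ratio were Itgb1, Itgb2, Itgb7, Itga4, Lims1, Fermt3, Vasp, Actn4 and Flna, between -0.04 and 0.45. Among the 20 genes not compared, Itgb8 had 1 and 15 UMIs, and none of the others had more than 27 UMIs in either library.

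The lymphoid gate mixed T-marked and NK-marked nuclei, 54 and 28 in Sun1_WT and 75 and 26 in Sun1_KO. Itga2, known from NK cells, had 144 and 192 CPM in NK-marked nuclei, from 15 and 13 UMIs. In T-marked nuclei it had 5.65 and 3.34 CPM, from 1 UMI in each library. Itga1 also was higher in NK-marked nuclei, at 404 and 369 CPM against 141 and 110 CPM. Itgb3 rested on 18 and 18 UMIs in NK-marked on 3 and 34 UMIs in T-marked and on 0 and 9 UMIs in the remaining lymphoid-gated nuclei. Itga4 was at 269 and 384 CPM in NK-marked and at 452 and 554 CPM in T-marked nuclei. The Itga4 intervals of NK-marked and T-marked nuclei overlapped in both libraries. They were 179 to 389 and 358 to 563 CPM in Sun1_WT, and 251 to 563 and 473 to 645 CPM in Sun1_KO. The share of NK-marked nuclei was 31.1% (21.8 to 41.7) and 21.8% (14.8 to 30.4), and its part in the lymphoid ratios was not tested.

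Further lists of genes place the set in its pathway, and their counts stand beside 12.9% of all genes higher and 10.1% lower in tumour-gated nuclei. Of 4 other integrins measured in tumour-gated nuclei 0 were called, with Itga2b at 0.24 and Itgae at -0.26. Another 56 adhesome genes gave 6 higher and 3 lower, and their median of 0.14 was that of all genes. The lowest were Lims2 (-1.20, 81 and 18 UMIs) and Cd9, a tetraspanin that associates with integrins, at 528 and 290 CPM (-0.86). The highest was Arhgef6 (1.88, 19 and 37 UMIs), known from blood cells. For 28 integrin ligands the counts were 3 higher and 3 lower and the median -0.11. Tnc, which encodes the matrix protein tenascin C, was at 29.2 and 10.4 CPM (-1.49) and Nid1, which links laminin to collagen in basement membranes, at 84.6 and 42.2 CPM (-1.002). Ccn1 and Ccn2, secreted ligands of Itgav integrins, were higher at 56.0 and 158 CPM (1.49) and at 5.99 and 11.9 CPM (0.99). Of 20 actin and SRF genes 1 was higher and 4 lower, with Srf at 0.69, Diaph3 at 0.43, Myh10 at -0.89 and Myl12a at -0.78.

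In leukocytes the same lists are read against the shares of all genes given above, 7.94% higher and 5.92% lower in myeloid-gated and 11.4% and 9.25% in lymphoid-gated nuclei. Among myeloid-gated nuclei 2 of 39 adhesome genes were higher (Arhgef6 at 0.73 and Pak1 at 0.69) and 0 lower, with Cav1 and Cd9 lowest at -0.56. Of 12 ligands 2 were higher and 0 lower: Col1a1 (1.59, 23 and 58 UMIs) and Col1a2 (0.76), both collagen genes of fibroblasts, whose 7 markers summed to 53.1 and 38.2 CPM in that gate. The lowest ligands were Thbs1 (-0.17) and Tgfb1 (-0.12). Of 18 actin and SRF genes 2 were higher, Myh10 (1.16) and Cnn3 (0.91), and Myl12a was lowest at -0.48. Among lymphoid-gated nuclei 2 of 26 adhesome genes were higher, Nck2 (0.73) among them, and 2 lower, with Lasp1 lowest at -0.66. Myl12a (-0.91) was the lower 1 of 14 actin and SRF genes.

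The authors' deposited table of log2 fold changes between the libraries lists 24 genes of the set, 21 above 0 and 3 below 0. Their median in the authors' deposited table is 0.51, and that of all 10155 genes in it is 0.59. Itgb4 (-1.06), Itga6 (-0.11) and Itgb7 (-0.07) are the 3 below 0 in the authors' deposited table, and Itga3 (1.04) and Itga5 (0.88) are its highest of the set. The labels do not say which nuclei entered it.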

How the data were processed

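Deposited values of both assays are counts: UMIs of each gene for the expression libraries and counts of each peak for the accessibility libraries, with 1 column per nucleus. The submitters' processing notes name Cell Ranger, Cell Ranger ARC, FastQC, Seurat, Signac and mm10, with versions not given in the sources used here. In the authors' deposited table the mean column is a signal (counts divided by size factors), the fold changes are log2 values, the standard error and statistic are scores, and the p-values come from a DESeq2 Wald test, per the file headers; its direction was read against the counts. No p-value of it is used here.

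A nucleus needed 500 UMIs, 300 genes and no more than 20% of UMIs from mitochondrial genes. Gates used marker UMIs per 10000: tumour at least 10 (myeloid up to 5, lymphoid up to 2, Xist up to 1), myeloid at least 20 and lymphoid at least 10, each with 3 distinct markers and limits on the other lists. These thresholds were set after seeing the marker distributions, without the 35 genes. No doublet caller was run, and settings without the deepest 5% of nuclei stand in for it. The genes, lists and alternatives were chosen with earlier results of these data known. Named genes are the 35, Sun1, and up to 2 highest and 2 lowest measured genes of each other list and gate; the clusters' leading genes, Itgb8 below 50 UMIs and the other genes named beyond this rule were chosen after their values were seen. Some genes that the rule would name are not reported here.

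UMIs were summed per gate and library, and mitochondrial genes were left out of the total that scales them; a log2 ratio used 0.5 UMIs added to each sum, and genes needed 50 UMIs over both libraries. Intervals are exact Poisson for levels, exact conditional binomial for ratios and Clopper-Pearson for shares. Only the ratio intervals were checked, on simulated Poisson counts, which hold no spread beyond counting error. Levels per kilobase use the gene's annotated span. Clusters came from 2000 variable genes without the 35, with Leiden in igraph 0.11.9. Peaks of the libraries were merged where they overlapped by 1 base; about 75.5% and 75.0% of accessibility values are even, so ratio intervals use counts divided by 2. A promoter is the 300 bases around a RefSeq start, and accessibility CPM is scaled by the counts in shared regions. Promoter and locus sums hold only regions called in both libraries. Python 3.11.15, numpy 2.4.6, scipy 1.17.1, R 4.3.3 and edgeR 4.0.16 (TMM factors only) were used.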

Additional observations from a re-analysis of the deposited data

Results flagged for a closer look

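Itgb2 stood on opposite sides of 0 in the tumour and myeloid gates. Its log2 ratio of Sun1_KO over Sun1_WT was 0.69 in tumour-gated nuclei, at 5.04 and 8.12 CPM, and -0.77 in myeloid-gated nuclei, at 337 and 197 CPM. The tumour-gate call was lost with TMM scaling (0.48) and with median-ratio scaling (0.55), and the leukocyte gene Ptprc stood at 2.76 and 9.47 CPM in that gate. With 1 library per genotype the difference between the gates was not tested.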

How the results depend on the processing

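No paired analysis was possible because each genotype has 1 library per assay, so no replicate can be left out either. Itgb4 and Itgb7 in the tumour gate and Itgb2 in the myeloid gate kept their call in every alternative. Itga2, Itgal and Itgam in the tumour gate and Itgb3 in the lymphoid gate kept it wherever they could be compared. That was 10 of 12 alternatives for Itga2, 9 of 12 for Itgal, 10 of 12 for Itgam and 6 of 11 for Itgb3. Itgb3 was not compared without the deepest 5% of nuclei, and many of its Sun1_KO UMIs came from 1 nucleus, as given above. In the tumour gate Itga3 lost its call only with TMM scaling (0.58) and Itga6 only when thinned (-0.47). Percentages in brackets below give the share of all genes called alike in that setting. The 5 of 31 genes higher in Sun1_KO tumour-gated nuclei became 2 with TMM scaling (6.69%) and 3 with median-ratio scaling (8.05%). They became 9 of 35 with a minimum of 20 UMIs (16.1%) and 2 of 25 when nuclei were thinned to 1000 UMIs (13.9%). With median-ratio scaling the all-gene calls were 1141 higher and 2076 lower. The 3 lower of 25 in myeloid-gated nuclei became 1 of 25 with a pseudocount of 5 (4.51%) and 1 of 24 with stricter gates (5.97%). The 0 higher there became 2 of 20 when thinned (14.2%) and 1 of 25 without the deepest 5% of nuclei (7.76%). The 1 lower of 15 in lymphoid-gated nuclei became 3 of 15 with TMM (10.9%) or median-ratio scaling (11.8%). It was also 3 of 15 if the total included mitochondrial genes (12.1%). It became 2 of 21 with a minimum of 20 UMIs (12.3%), and 2 of 12 with thinning (14.0%) or stricter gates (9.54%). With at least 1500 UMIs per nucleus it was 2 of 15 (9.33%), and with a minimum of 100 UMIs 0 of 12 (8.38%). The 1 higher there became 2 of 21 with a minimum of 20 UMIs (15.7%) and 2 of 12 with thinning (17.9%). It became 0 of 12 with a minimum of 100 UMIs (8.26%) or stricter gates (10.5%). With cluster classes it was 0 of 11 (11.2%), and without the deepest 5% 0 of 14 (12.9%). The 2 lower promoters became 1 with counts set to 1 and 0 over the shared regions of loci, where Itga2 turned to 0.24. Itga1 in the myeloid gate turned to 0.0506 with cluster classes. Changes of a minimum or of thinning change which genes are tested; the cause of the other changes was not tested. Itgb2 in the tumour gate lost its call with TMM (0.48) and median-ratio scaling (0.55). Genes near 0 changed sign in some settings: Actn1, Parva and Vasp in the tumour gate kept theirs in 8 of 12, Flna in the myeloid gate in 7 of 11 and Actn4 in each leukocyte gate in 6 of 11. Depth limits the lymphoid gate most, with 299736 and 415677 UMIs against 42431373 and 22177310 in the tumour gate.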
